A study of Caenorhabditis elegans with 2 samples.

Results

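UNC-39 occupancy was described at 60 genes of muscle, mesoderm and coelomocytes, among 19973 protein-coding genes of the Caenorhabditis elegans annotation. The genes are grouped by their known roles, and the rule that chose them used no measured value, although earlier results of these data were known when the list was written. They comprised 37 genes of muscle structure, 8 of excitation, 10 regulators of muscle and mesodermal lineages, 2 of fibroblast growth factor (FGF) signalling and 3 of coelomocytes. The assay was ChIP-seq against UNC-39, in which DNA bound by a protein is enriched with an antibody and sequenced. Both samples were whole L4 larvae, mixed sex, of strain OP186 (unc-119(ed3) III; wgIs186), and are called biological replicates 1 and 2 by the labels. The strain carries the mutant allele unc-119(ed3) and stably expresses UNC-39 with a GFP-FLAG tag at its C terminus, so the tagged copy is present in every sample. The labels give the antibody target as unc-39, do not say which promoter drives the tagged protein, and include no untagged or untreated group. There was therefore a single group, no conditions were compared, and no test between groups was possible.

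UNC-39 is a homeodomain protein of the sine oculis class, related to vertebrate SIX4 and SIX5, and is known in C. elegans for roles in cell migration and in the differentiation of mesodermal cells. Body wall muscle of the worm is built from sarcomeres of myosin thick filaments and actin thin filaments, which are anchored to the cell membrane through integrin complexes. Part of the body wall muscle, the sex muscles and some coelomocytes, the scavenger cells of the body cavity, descend from a postembryonic mesodermal blast cell called M. Whole animals were used, so a region of signal cannot be assigned to muscle, to coelomocytes or to any other cell type.

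The deposited lists hold 30000 regions each, and they are relaxed lists that were made to contain background as well as peaks. A region was counted for a gene when its summit, the middle of the region, lay in the gene body or within 2000 bases of the 5′ end of any of its transcripts. Regions were ranked by the signal value that the authors deposited with them, with rank 1 the strongest; its scale is not stated, and it is given here only within a list. A rank of 2000 or better is called strong. A pooled region is called supported in a replicate when it overlaps a region of that replicate's own list by at least 1 base. Where it is supported in both, the regions of the replicates need not overlap each other. No read counts came with the lists, so the depth behind each region is unknown and no counting interval can be given.

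The following stretches of the reference sequence (build WBcel235, the same as ce11, plus strand) show the DNA at the summits of regions that the results below turn on. Each runs 100 bases to either side of a summit, except at act-4, where it was cut to the part of an intron that holds no exon. They come from the strongest region at act-4 (chrX:4960719-4960824), fozi-1 (chrIII:9288969-9289169), acr-16 (chrV:8560330-8560530), unc-112 (chrV:14696911-14697111), unc-22 (chrIV:12009410-12009610) and deb-1 (chrIV:7095578-7095778). Capitals mark every match, on either strand, to the words TGATAC and TGACAC, which resemble cores bound by homeodomains of the sine oculis class, to GAGAGA, to the E-box CAGCTG, or to CGTCTC. Matches may overlap, and a reverse match appears as its complement, for example TCTCTC for GAGAGA.
act-4: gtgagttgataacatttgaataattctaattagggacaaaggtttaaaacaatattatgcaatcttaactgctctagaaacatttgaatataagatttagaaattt
fozi-1: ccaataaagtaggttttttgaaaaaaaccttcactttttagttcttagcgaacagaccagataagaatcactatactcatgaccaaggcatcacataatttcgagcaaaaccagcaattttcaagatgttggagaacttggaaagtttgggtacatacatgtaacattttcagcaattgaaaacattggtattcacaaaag
acr-16: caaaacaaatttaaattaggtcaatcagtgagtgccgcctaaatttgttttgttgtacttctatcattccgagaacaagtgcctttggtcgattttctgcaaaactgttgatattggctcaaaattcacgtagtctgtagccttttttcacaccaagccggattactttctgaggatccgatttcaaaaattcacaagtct
unc-112: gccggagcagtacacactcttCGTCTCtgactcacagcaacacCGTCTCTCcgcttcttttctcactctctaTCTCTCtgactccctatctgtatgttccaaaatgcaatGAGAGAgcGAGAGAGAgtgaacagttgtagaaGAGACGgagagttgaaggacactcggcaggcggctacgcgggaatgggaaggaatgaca
unc-22: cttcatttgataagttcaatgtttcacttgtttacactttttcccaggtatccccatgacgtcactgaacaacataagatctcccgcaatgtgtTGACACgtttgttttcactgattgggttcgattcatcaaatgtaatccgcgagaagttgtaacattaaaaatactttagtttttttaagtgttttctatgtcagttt
deb-1: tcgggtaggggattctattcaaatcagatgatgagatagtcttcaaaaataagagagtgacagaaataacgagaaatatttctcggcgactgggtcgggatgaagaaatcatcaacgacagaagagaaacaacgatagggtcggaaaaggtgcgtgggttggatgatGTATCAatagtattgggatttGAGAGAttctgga

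The first 3 stretches, from act-4, fozi-1 and acr-16, are shown because their regions were strong, and none of them held any of the 5 words. The stretch upstream of unc-112 is shown because its region ranked 550 in replicate 2, and it held 5 matches to GAGAGA and 3 to CGTCTC but neither TGATAC nor TGACAC. The unc-22 stretch held TGACAC, starting 6 bases before the summit, and the deb-1 stretch held TGATAC, starting 67 bases after it. Within 100 bases of the summit, 24 of the 201 pooled regions at the listed genes (11.9%) held TGATAC or TGACAC, against 14.4% of all 30000 pooled regions. The order of these shares turned round in the replicates' own lists, where 28 of the 187 regions at the listed genes held either word in replicate 1 (15%, against 14.1% of all its regions) and 32 of 202 in replicate 2 (15.8%, against 14.2%).

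The shares of the other words at the listed genes were also near those of the whole list. GAGAGA was found in 16.4% of the regions at the listed genes, against 13.1% of all pooled regions. CAGCTG was found in 5.47%, against 4.30%, and CGTCTC in 5.97%, against 6.79%. Taken apart, TGATAC was found in 3.98%, against 6.84%, and TGACAC in 7.96%, against 8.07%. A match of 6 letters describes the sequence and does not show a binding site.

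Pooled regions were found at 55 of the 60 listed genes (91.7%), against 77.6% of all protein-coding genes. The listed genes are long: the median length searched was 6.53 kb, against 4.18 kb over all protein-coding genes, and long genes hold more regions. Per length searched, the listed genes held 0.308 regions per kb, against 0.307 over all protein-coding genes. Among genes with under 6 kb searched, 24 of 29 listed genes had a region (82.8%), against 73.2% of all genes of that length. All 19 listed genes with 6 to 12 kb had a region, against 90.4%, and all 12 with over 12 kb, against 98.1%. The listed genes were thus covered by regions at the density of the genome's genes as a whole, and 32 of them held 2 to 5 regions, 15 held 1 and 8 held more than 5.

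**Figure D1:**
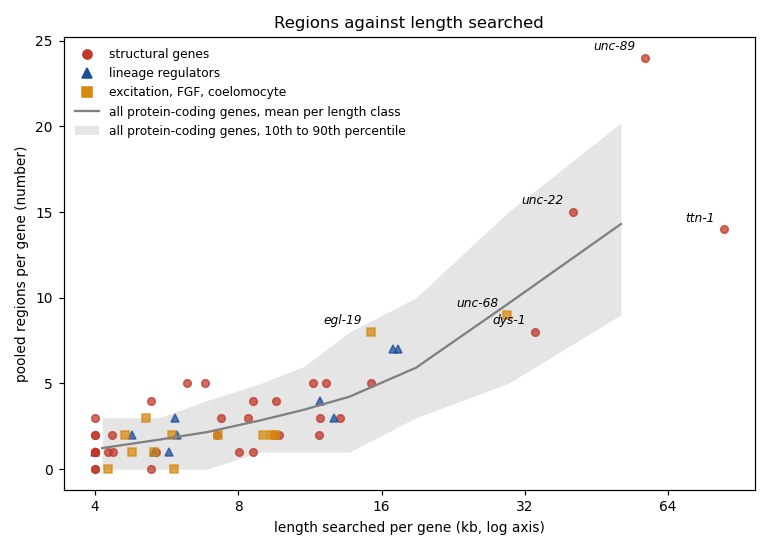
Pooled regions per gene (number) against the length searched per gene (kb, log axis), with a point for each of the 60 listed genes and, for all protein-coding genes, the mean per length class (line) and the 10th to 90th percentile (band). unc-89 with 24 regions lies above the band's end, ttn-1 has 14 regions in the longest span searched, and most other points lie inside the band.

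Strong regions were found at 6 of the 60 genes, against 10.2% of all protein-coding genes. The 6 were act-4, an actin of body wall muscle; fozi-1 and sem-4, zinc finger proteins that act in the M lineage; unc-45, a chaperone for myosin; acr-16, a subunit of the nicotine-sensitive acetylcholine receptor of muscle; and unc-87, an actin-bundling protein. By length searched, strong regions were found at 1 of 29 listed genes under 6 kb (3.45%), against 7.73% of all such genes. The count was 3 of 19 between 6 and 12 kb (15.8%), against 15.1%, and 2 of 12 over 12 kb (16.7%), against 29.8%. The listed shares rest on few genes. None of the 60 genes held a peak of the optimal list, the 63 peaks that the authors kept after IDR (irreproducible discovery rate, a filter on how well ranks repeat between replicates). Such a peak was held by 0.401% of all protein-coding genes.

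Replicate support was found at 27 of the 60 genes, which held at least 1 pooled region supported in both replicates, against 35.0% of all protein-coding genes. Per region the order was the other way: 45 of the 201 regions (22.4%) were supported in both, against 30.8% of the regions at all protein-coding genes. A further 80 regions were supported in replicate 1 only, 56 in replicate 2 only and 20 in neither. None of the 201 pooled regions at listed genes overlapped a strong region of both replicates, a property of 277 of all 30000 pooled regions. That share is small in the whole list as well, so a count of 0 is not a result about the listed genes.

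The shares of supported regions were also set side by side at like rank. Among the 26 regions of the listed genes at ranks 1 to 5000, 53.8% were supported in both replicates, against 66.0% of all pooled regions in that range. The shares were 28.4% against 35.6% at ranks 5001 to 15000, and 9.90% against 15.7% at ranks 15001 to 30000. These are shares of regions and carry no test, since regions of the same gene and library are not independent.

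**Figure D2:**
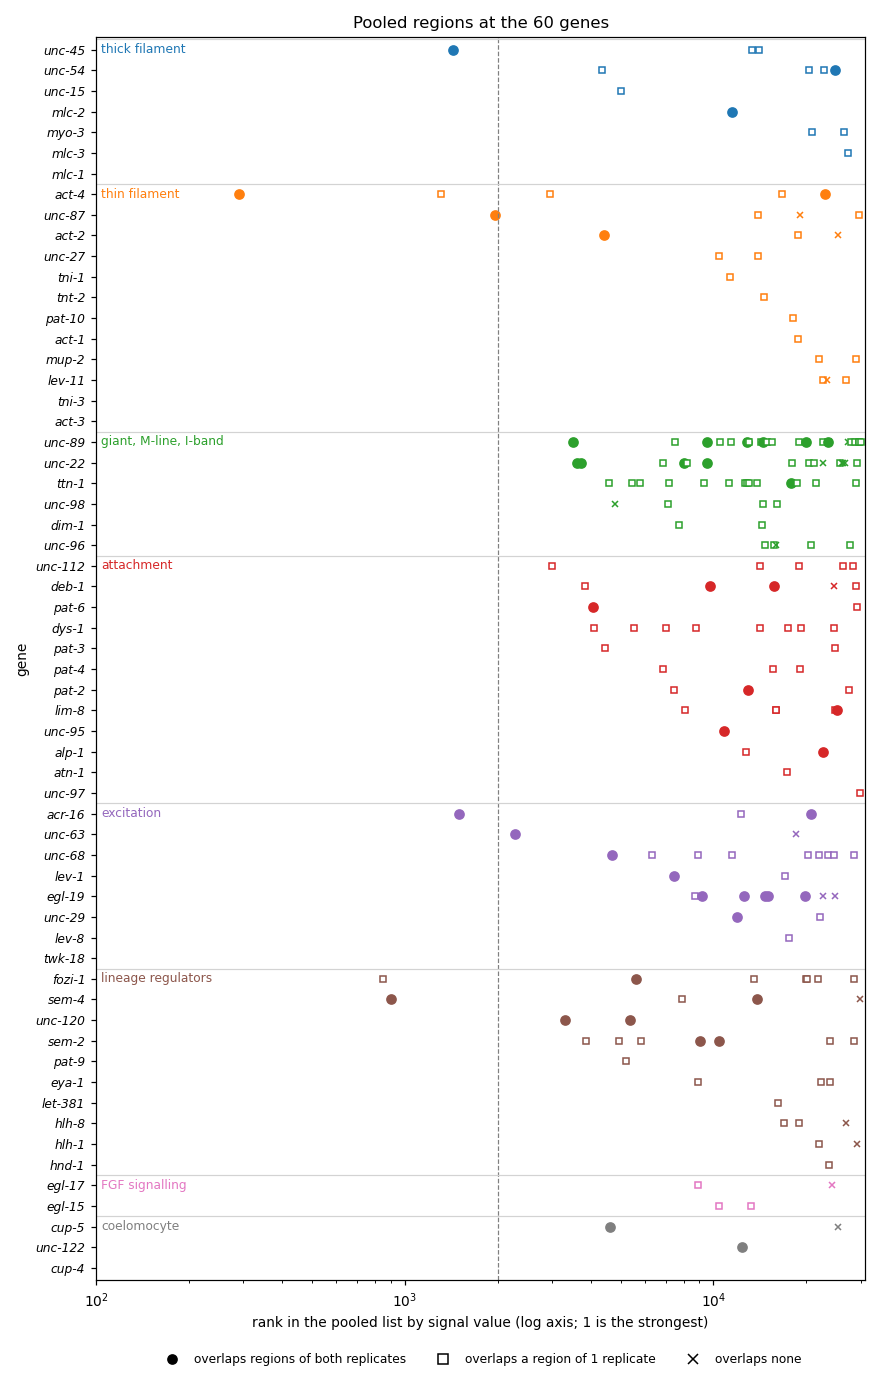
Rank of every pooled region in the pooled list (log axis, 1 the strongest) for each of the 60 genes, grouped by role and ordered within a role by the best rank. Filled circles overlap regions of both replicates, open squares a region of 1 replicate and crosses none; the dashed line is rank 2000, and 7 regions of 6 genes lie left of it.

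Regions were found at 6 of the 7 thick filament genes (85.7%), against 77.6% of all protein-coding genes. The median length searched was 8.59 kb, against 4.18 kb. Of the 12 pooled regions of the group 3 (25.0%) were supported in both replicates, against 30.8% over all protein-coding genes. At unc-54 the region supported in both, at rank 24733, overlapped regions at ranks 3293 and 9894 of replicates 1 and 2. These do not overlap each other. The density of the group was 0.226 per kb in the pooled list, against 0.307 over all protein-coding genes. In each replicate's own list the 7 genes held 16 regions, or 0.301 per kb, against 0.307 in replicate 1 and 0.309 in replicate 2 over all protein-coding genes, so the lower pooled density did not recur there. unc-45 held a strong region, at rank 1432 of the pooled list with a signal value of 13.4, at rank 2708 in replicate 1 and at rank 9495 in replicate 2. It lies in the 3′ UTR (chrIII:502391-502790), 11044 bases from the gene's own nearest 5′ end, and the nearest protein-coding 5′ end is that of F30H5.3, at 9626 bases. The strongest region of unc-54, the major myosin heavy chain of body wall muscle, ranked 4359 in the pooled list and 3293 in replicate 1, had none in replicate 2 and lay in a coding exon 6054 bases from the 5′ end.

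The remaining thick filament genes with a region had their best pooled ranks between 5033 and 27212. myo-3, the other body wall myosin heavy chain, had pooled regions at ranks 20878 and 26532, which overlapped regions of replicate 2 at ranks 1587 and 7186 and none of replicate 1; the summit of the first of these lies outside the sequence searched. unc-15, which encodes paramyosin, had a single pooled region at rank 5033 in its coding sequence, with 6 regions in the list of replicate 2 and none in that of replicate 1. mlc-1, a myosin regulatory light chain, had no pooled region, mlc-2 had a region at rank 11502 and mlc-3 at rank 27212. The mlc-2 region was supported in both replicates.

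Thin filament genes held the strongest region of the whole set, at act-4. It ranked 291 in the pooled list with a signal value of 17.8, at rank 342 in replicate 1 and at rank 4113 in replicate 2, and its summit lay in an intron 103 bases past a 5′ end (chrX:4960524-4960923). The summit of the overlapping region in replicate 1 lay 35 bases past the same 5′ end, in the 5′ UTR, and that of replicate 2 lay 70 bases before it. A further strong region of act-4, at rank 1306 in the pooled list and 1197 in replicate 1 with none in replicate 2, lay in the 3′ UTR. All 5 pooled regions of act-4 were supported in replicate 1 and 2 of them in both replicates. By rank, act-4 thus stood higher in the list of replicate 1 than in that of replicate 2.

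The strong region of unc-87 ranked 1967 in the pooled list, 1277 in replicate 1 and 26148 in replicate 2. It lies in the 3′ UTR, inside the neighbouring gene F08B6.1 as well, whose 5′ end is nearer. No pooled region was found at tni-3, a troponin I, or at act-3. The other 8 thin filament genes with a region had their best ranks between 4417, at act-2, and 21968 and 22720, at mup-2 (troponin T) and lev-11 (tropomyosin). Thin filament genes held 0.358 regions per kb in all, against 0.307 over all protein-coding genes. Of the 12 genes, 10 were covered (83.3%), against 77.6%.

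The actin genes act-1, act-2 and act-3 lie side by side and are nearly identical, which limits what a missing region there can show. Only 12.2% of the 32-base words across act-1 occur once in the genome, 61.8% across act-2 and 58.1% across act-3, against a median of 99.9% over the listed genes. The regions that were listed there lie in sequence of high uniqueness, from 92.7% to 100% of words. A single pooled region was counted for both act-1 and act-2, so the 202 region-gene pairs come from 201 regions.

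The genes of giant and of M-line or I-band proteins held the most regions, 64 in all. unc-89 (an obscurin-like protein of the M-line) held 24 pooled regions, unc-22 (twitchin) held 15 and ttn-1 (a titin-like protein) held 14. These 53 regions lie in 181 kb of searched sequence, and the 6 genes of the group together held 0.307 regions per kb. The genes lay on both sides of that value: ttn-1 held 0.167 and dim-1 0.205 regions per kb, against 0.372 at unc-22, 0.411 at unc-96, 0.420 at unc-89 and 0.762 at unc-98. None of the 6 genes had a strong region in the pooled list, against 10.2% of all protein-coding genes, and 6 genes are few. The best region of unc-89 ranked 3513 in the pooled list, 15380 in replicate 1 and 7144 in replicate 2, in an intron 310 bases before a 5′ end. At unc-22 the best region ranked 3607 in the pooled list, 19422 in replicate 1 and 2335 in replicate 2, in an intron 1370 bases past a 5′ end, which is the stretch with TGACAC printed above.

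Strong regions within both of these genes were listed in replicate 2 alone. A region in a coding exon of unc-22 ranked 394 in replicate 2 and 6844 in the pooled list, with no region of replicate 1 there. Regions of unc-89 ranked 1257 and 1393 in replicate 2, and of these only the region at rank 1393 overlapped a replicate 1 region, at rank 27604. Of the 64 pooled regions of the group, 17.2% were supported in both replicates, against 30.8% over all protein-coding genes.

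All 12 genes of attachment, the integrin complexes and dense bodies that anchor the filaments, had a pooled region, against 77.6% of all protein-coding genes. The median length searched was 7.70 kb, against 4.18 kb, and the density was 0.308 per kb, against 0.307. None of the 12 genes had a strong region, against 10.2% of all protein-coding genes, and 12 genes are few. The region upstream of unc-112, which encodes kindlin, ranked 2994 in the pooled list with a signal value of 11.7. In replicate 2 it ranked 550, replicate 1 listed nothing there, and its summit lay 357 bases before the 5′ end (chrV:14696811-14697210). The region upstream of deb-1, which encodes vinculin, ranked 3843 in the pooled list and 1749 in replicate 1, with none in replicate 2, and lay 1412 bases before a 5′ end. These 2 genes led the group, and the best region of each was supported in a different replicate.

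The genes next in rank were pat-6 (parvin) at 4059, dys-1 (dystrophin) at 4116 and pat-3 (beta integrin) at 4459. Only the pat-6 region among these was supported in both replicates. The lowest best rank of the group was 29785, at unc-97 (PINCH), which had no region in replicate 1. In replicate 2 unc-97 had 3 regions, the best at rank 3459, 232 bases past the 5′ end. The pooled region overlapped another of them, at rank 13446. Of the 38 regions of attachment genes, 18.4% were supported in both replicates, against 30.8% over all protein-coding genes.

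Genes of excitation had the highest share of supported regions among the role groups with over 3 regions. Of their 27 regions, 11 (40.7%) were supported in both replicates, against 30.8% over all protein-coding genes. Of these 11, 5 were at egl-19. A further 2, at acr-16, overlap each other and rest on the same replicate regions. The region upstream of acr-16 ranked 1500 in the pooled list with a signal value of 13.3, at rank 6842 in replicate 1 and at rank 5025 in replicate 2, and lay 786 bases before the 5′ end (chrV:8560230-8560629). A separate region in an intron of acr-16 ranked 1500 in replicate 1 but 12253 in the pooled list, with none in replicate 2. unc-63, an alpha subunit of the levamisole-sensitive acetylcholine receptor, had its best region just outside the bound. It ranked 2271 in the pooled list, 1521 in replicate 1 and 10999 in replicate 2, 1303 bases before a 5′ end.

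**Figure D3:**
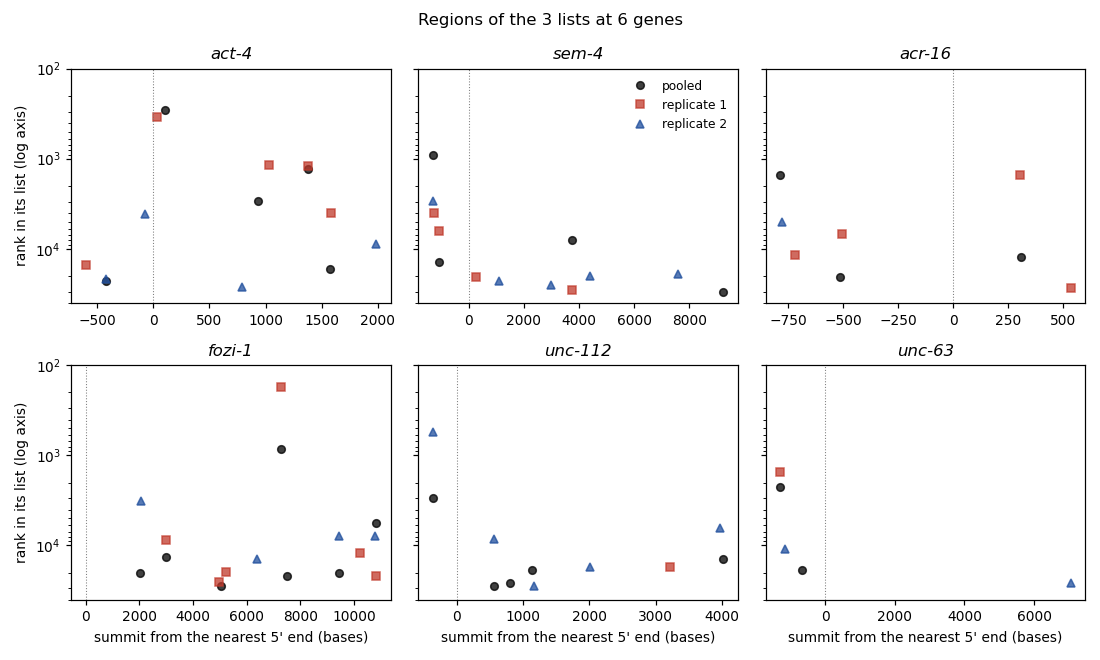
Rank in its own list (log axis, strongest at the top) against the distance of the summit from the nearest 5′ end of the gene (bases, negative before it) for the regions of the pooled list and of both replicates at act-4, sem-4, acr-16, fozi-1, unc-112 and unc-63. Regions of all 3 lists lie together before the 5′ ends of sem-4, acr-16 and unc-63. The strongest pooled region of fozi-1 has no region of replicate 2 beside it and that of unc-112 none of replicate 1.

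The calcium channel genes of excitation had several regions of middle rank. egl-19, the L-type calcium channel, had 8 pooled regions, of which 5 were supported in both replicates, with a best pooled rank of 8733. unc-68, the ryanodine receptor, had 9 pooled regions with a best rank of 4692, and of these only 1 was supported in both replicates. In the replicates' own lists unc-68 held strong regions at ranks 1286 and 1336 of replicate 1 and at rank 1625 of replicate 2, at 22016, 21078 and 11639 bases from the nearest 5′ end. twk-18, a potassium channel, had no pooled region and none in replicate 1.

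All 10 lineage regulators had a pooled region, against 77.6% of all protein-coding genes, and 2 of them had a strong region, against 10.2%. These 2, fozi-1 and sem-4, are long, with 16.9 and 11.9 kb searched. Strong regions were found at 29.8% of all genes over 12 kb and at 15.1% of those between 6 and 12 kb. The pooled density of the lineage regulators was 0.343 per kb, against 0.307 over all protein-coding genes. In the replicates' own lists it was 0.298, against 0.307, in replicate 1 and 0.243, against 0.309, in replicate 2. The higher pooled density thus did not recur there. The median rank of their 31 regions was 16125, against 15652 for the 136 regions of the structural genes and 14976 for regions at all protein-coding genes. Taking the best region of each gene, the median was 7063.5 for lineage regulators and 7589.5 for structural genes, against 9610.0 for all protein-coding genes with a region. The median length searched was 5.92 kb for lineage regulators and 7.22 kb for structural genes, against 4.18 kb. Longer genes hold more regions, and the best of more regions tends to rank higher. Support in both replicates was found for 22.6% of the regions of lineage regulators and 18.4% of those of structural genes, against 30.8% over all protein-coding genes. The medians of the role groups lie close together beside the range of ranks within each.

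fozi-1 had the region of highest rank among the regulators. It ranked 850 in the pooled list with a signal value of 14.7 and 175 in replicate 1, while replicate 2 listed nothing there. Its summit lay in an intron 7288 bases past the 5′ end (chrIII:9288869-9289268). A second pooled region at rank 21731 overlaps it, with its summit 7488 bases past the 5′ end. The 4 regions of fozi-1 in the list of replicate 2 lay elsewhere in the introns, the best at rank 3223.

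The strong region of sem-4, a spalt-like zinc finger protein, repeated at closer ranks. It ranked 904 in the pooled list with a signal value of 14.6, 3996 in replicate 1 and 2940 in replicate 2, and lay 1303 bases before the 5′ end, outside the bodies of other protein-coding genes. Among the 7 strong regions at the listed genes, only this region and the first at act-4 had a rank better than 5000 in both replicates. sem-4 had 3 further pooled regions, the best at rank 7924.

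The regulators best known for body wall muscle itself differed widely in rank. unc-120, a MADS-box factor related to serum response factor, had 2 overlapping pooled regions in an intron at ranks 3300 and 5381, both supported in both replicates. hlh-1, the MyoD homologue, had regions at ranks 21915 and 29162 only, and none in replicate 1. pat-9, a zinc finger protein, had its best pooled region at rank 5194, and a region of replicate 1 at rank 1229 lay 1076 bases before the 5′ end. hnd-1, related to the Hand factors, had a single region at rank 23704, with none in replicate 2.

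Regulators of the M lineage and of coelomocyte fate other than fozi-1 and sem-4 had no strong pooled region, with best ranks between 3866 and 16894. sem-2, a Sox factor, had 7 pooled regions, the best at ranks 3866 and 4929 in introns, each supported in a single replicate. eya-1, homologous to the Eyes absent proteins, which in other animals act with homeodomains of the UNC-39 class, had 3 intronic regions, the best at rank 8933 and none supported in both replicates. let-381, a forkhead factor, had a single region at rank 16125, and hlh-8, the Twist homologue, had its best at rank 16894. Neither of these genes had a region in replicate 2.

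Genes of FGF signalling, which guides migrating sex myoblasts, had regions of middle rank. egl-17, the ligand, had its best region at rank 8923 in a coding exon, supported in replicate 2 only and nearer to the 5′ end of B0310.1. egl-15, the receptor, had regions at ranks 10438 and 13257, both supported in replicate 1 only.

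Coelomocyte genes had 3 regions in all, or 0.158 per kb searched, against 0.307 over all protein-coding genes. cup-5, a lysosomal channel of the mucolipin family, had its best region at rank 4631, 9365 in replicate 1 and 24852 in replicate 2, inside the neighbouring gene R13A5.10. unc-122, whose promoter is widely used to mark coelomocytes, had a region in an intron at rank 12345, 18153 in replicate 1 and 24998 in replicate 2. cup-4, a channel-like protein needed for uptake by coelomocytes, was the only listed gene without a region in any of the 3 lists.

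The strongest regions of each replicate were also counted in its own list. Strong regions of replicate 1 were found at 8 of the 60 genes (13.3%), against 10.5% of all protein-coding genes, and those of replicate 2 at 6 of the 60, against 10.3%. Of the 60 genes only unc-68 (1.67%) had a strong region in each list, by regions that do not overlap, against 2.46% of all protein-coding genes. Among the 44 listed genes with a region in both lists, the best region of replicate 1 overlapped that of replicate 2 at 8 (18.2%), against 2769 of 12585 such protein-coding genes (22%). Both counts lie near the background, so neither is a result about the listed genes. The genes with a strong region in replicate 1 were fozi-1, act-4, pat-9, unc-87, unc-68, acr-16, unc-63 and deb-1. Those with a strong region in replicate 2 were unc-22, unc-112, unc-89, egl-19, unc-68 and lim-8, a LIM domain protein of muscle.

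**Figure D4:**
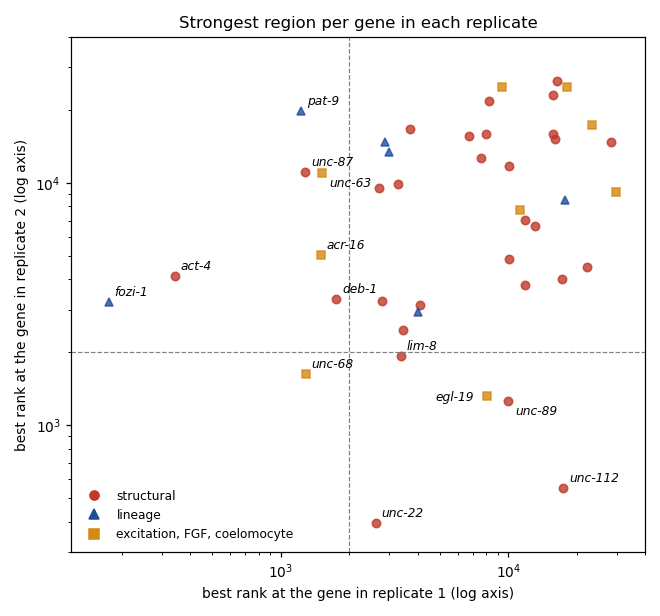
Best rank per gene in replicate 2 against that in replicate 1 (both log axes) for the 44 listed genes with a region in both lists, coloured by role, with dashed lines at rank 2000. Only unc-68 lies below rank 2000 on both axes; fozi-1 at rank 175 and act-4 at rank 342 lead on the replicate 1 axis, and unc-22 at rank 394 and unc-112 at rank 550 on the replicate 2 axis.

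The regions at the listed genes lay mostly inside the genes. Introns held 45.5% of the 202 region-gene pairs, against 28.8% over all protein-coding genes, and sequence upstream held 18.8%, against 36.4%. Within 2000 bases of a 5′ end lay 58.9%, against 79.7%. The listed genes are also built differently, with 41.5% of their searched length in introns, against 30.4% for all genes, and 34.9% in coding exons, against 21.7%.

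Per length, outside the gene body the listed genes held 0.311 regions per kb, against 0.313 over all protein-coding genes. In introns the density was 0.339, against 0.291, and in untranslated exons it was 0.498, against 0.362, the listed value from 13 regions. In coding exons it was 0.249 regions per kb, against 0.303. As shares of regions, lineage regulators had 23 of 31 in introns (74.2%), and structural genes had 40.9% in introns and 32.1% in coding exons. These shares are not set against the intron length of either group. Among the regulators, fozi-1 and sem-2 held 7 regions each, most of them in introns.

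**Figure D5:**
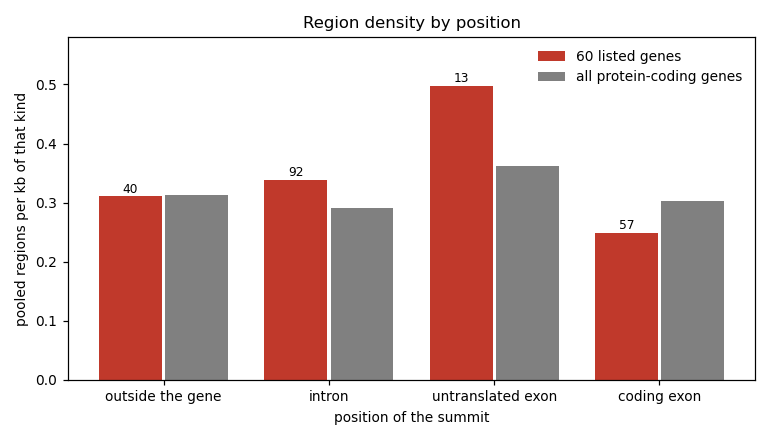
Pooled regions per kb of sequence of each kind for the 60 listed genes (left bars, with the number of region-gene pairs above) and for all protein-coding genes (right bars). The bars outside the gene differ least, at 0.311 and 0.313 per kb, and the listed genes' bar for coding exons, at 0.249, is below that of all genes, at 0.303.

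Support also differed with position. Outside the gene body 32.5% of the regions at the listed genes were supported in both replicates, against 31.8% over all protein-coding genes. In introns the share was 20.7%, against 30.7%, and in coding exons 15.8%, against 29.2%. Outside gene bodies the share was thus near that of all genes, and the shares that lay furthest from it were those within genes.

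The listed genes were also split by chromosome, a choice made after the values were seen. Of the 18 listed genes on X, 2 held a region supported in both replicates (11.1%), act-4 and mlc-2, against 25 of 42 on the autosomes (59.5%). Over all protein-coding genes the shares were 37.9% on X and 34.6% on the autosomes. The listed X genes are shorter, with a median of 4.71 kb searched against 8.47 kb on the autosomes, and per region 3 of 34 regions on X (8.82%) were supported in both, and 25.1% on the autosomes, against 30.5% and 30.9% over all protein-coding genes.

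Of the 201 regions, 147 had a listed gene's 5′ end as their nearest protein-coding 5′ end, and 15 lay inside another protein-coding gene as well. A region counted for a listed gene may therefore belong to a neighbour, as for the strong regions in the 3′ UTRs of unc-45 and unc-87. Neighbouring pooled regions can overlap, as at fozi-1 and unc-120, and are counted apart.

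A further 27 genes of muscle, mesoderm and coelomocytes that are not on the list were counted beside it. They were written down with earlier results of these data known, so their counts support nothing about the pathway. Regions were found at 26 of the 27 (96.3%), all but mls-2, against 77.6% of all protein-coding genes. The density was 0.305 per kb, against 0.307. Strong regions were found at 9 (33.3%), against 10.2%, in genes with a median of 7.37 kb searched, against 4.18 kb. The strongest were at unc-62, a Meis homeodomain factor, at rank 181; at sma-9, a Schnurri homologue that acts in the M lineage, at rank 478; and at zyx-1, zyxin, at rank 724. The unc-62 region thus ranked above every region at the 60 listed genes in the pooled list. It overlapped a region of replicate 1 at rank 140 and none of replicate 2. The sma-9 region ranked 4095 in replicate 1 and 1791 in replicate 2, and the zyx-1 region 1441 and 4379.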

How the data were processed

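Per the notes deposited with the samples, the authors made a relaxed list of peaks and background for each replicate from its alignments and a further file, a pooled list from both alignments, and an optimal list by IDR. The signal value of each region is a score from the authors' peak caller, deposited in narrowPeak form on ce11; lists on ce10 were not used. Read depth, control, aligner, caller and threshold of IDR were not given in the sources used here.

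Regions were ranked by signal value within each list of 30000 and assigned to genes of the Ensembl release 115 annotation of WBcel235 with Python 3.11.15, numpy 2.4.6 and pandas 2.3.3; figures were drawn with matplotlib 3.10.9. The settings were a window of 2000 bases around each 5′ end, an overlap of 1 base for support, rank 2000 for strong regions, and words of 32 bases for uniqueness. Counts over the listed genes are set beside the same counts over 19973 protein-coding genes, with no test, since genes and regions are not replicates. The assignment was tested on simulated regions.

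The members, role groups and other lists were chosen with earlier results of these data known. Genes named are those with a strong region, the 2 best by rank in each role group, the 3 with the most regions, any overlapping a strong region of both replicates, and those with no pooled region; other genes were named for their known role or after their values were seen.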

Additional observations from a re-analysis of the deposited data

How the results depend on the processing

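The lists give no read counts, so depth is unknown, and a missing region is not shown to be an absence of binding. No paired analysis was possible because both samples form a single group. The count of genes with a region (55) lay between 48 and 53 under all 6 alternatives. It was 50 of 60 with the nearest gene only, against 62.6% of all protein-coding genes, and 52 without the gene body, against 73.9%. With each replicate's list in place of the pooled one, the ratio of density to all protein-coding genes (1.01) was 0.946 to 1.00, the median rank was 15092 to 15854 at structural genes (15652) and 15701 to 19990 at lineage regulators (16125), and 15% to 15.8% of regions held TGATAC or TGACAC (11.9%). Without the gene body, 3 genes had a strong region (6 of 60), the density ratio was 1.13 and the median at lineage regulators 11456. Counting a region only for the nearest gene gave a ratio of 1.06, 70.7% near a 5′ end (58.9%) and 10.9% with either word. The 10000 strongest pooled regions gave 0.873 and 64.4%. Windows of 1000 and 500 bases left 32.8% and 21.3% near a 5′ end. The best region of each gene gave medians of 7589.5 and 7063.5. Windows of 50 and 200 bases for the words gave 6.97% and 30.3%. Strong at rank 1000 left 3 genes (5.38% of all genes), at rank 5000 gave 22 (23.1%), and the optimal list gave 0. Support in both replicates (27 genes) was left at 5 with the 10000 strongest regions of each replicate, and at 17 with summits within 100 bases. The latter alternative was added after seeing the data. So were leaving out unc-89, ttn-1 and unc-22 (ratio 1.03) and counting overlapping regions once (1.01). No share over all genes is given beside the 5, the 17 or the 3 genes strong without the gene body. Their fall is therefore not shown to be particular to the listed genes. Windows, ranks and lists of other size change these values by construction; for the replicate lists the cause was not tested.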
